A study of Rattus norvegicus with 6 samples.

Results

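The 7 genes described here encode matrix metalloproteinases and their inhibitors in rat tendon. They were chosen by gene ID from the 22250 gene IDs of the count table: 5 proteinases, Mmp2 (ENSRNOG00000016695), Mmp3 (ENSRNOG00000032626), Mmp9 (ENSRNOG00000017539), Mmp13 (ENSRNOG00000008478) and Mmp14 (ENSRNOG00000010947), and 2 inhibitors, Timp1 (ENSRNOG00000010208) and Timp3 (ENSRNOG00000004303). All 7 were in the table and all 7 passed the filter on low counts.

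Messenger RNA was sequenced from tendons of Sprague–Dawley rats whose achilles tendon had been transected and sutured at once. In the injury model group (n = 3) the injured tendon was left without drug treatment, and in the celecoxib + lactoferrin treatment group (n = 3) celecoxib, an inhibitor of cyclooxygenase-2, and lactoferrin, an iron-binding glycoprotein, were injected every day at the site of injury. Tendons were taken on day 14 after surgery, which the sample labels enter as an age. A vehicle injection in the injury model group is not given in the sources used here. Celecoxib and lactoferrin were given together in every treated rat of this comparison, so the part of each agent cannot be told apart. Uninjured tendons and tendons treated with celecoxib alone were not analysed here.

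Matrix metalloproteinases are zinc enzymes that cut the proteins of the extracellular matrix. They are made as inactive precursors, and tissue inhibitors of metalloproteinases (Timps) block the active enzymes by binding their catalytic site. In a healing tendon the proteinases are known for the removal and remodeling of collagen, and the Timps for restraining these enzymes. The level of a proteinase is therefore usually read beside that of its inhibitors. Mmp13 is a collagenase, Mmp3 (stromelysin-1) cuts proteoglycans and activates other proteinases, Mmp2 and Mmp9 are gelatinases, and Mmp14 sits in the cell membrane, where it activates the precursor of Mmp2.

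Mmp3 and Mmp13 moved over the widest range of these genes, and their promoters are shown beside those of the inhibitors so that the sequence before each gene can be compared. Of the 7 genes, 4 matched an entry of the RefSeq promoter table by symbol (build GRCr8, strand as given). Each line holds the 150 bases before the annotated start, 5′ to 3′. Capitals mark 3 motifs searched on both strands: the AP-1 motif TGAGTCA, bound by Fos and Jun dimers, its variant TGAGTAA, and the TATA motif TATAAA.
Mmp3, chr8:12925131-12925280, plus strand: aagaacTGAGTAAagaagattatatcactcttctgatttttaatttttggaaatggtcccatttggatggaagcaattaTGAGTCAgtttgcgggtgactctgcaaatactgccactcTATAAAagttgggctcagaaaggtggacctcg
Mmp13, chr8:12782679-12782828, plus strand: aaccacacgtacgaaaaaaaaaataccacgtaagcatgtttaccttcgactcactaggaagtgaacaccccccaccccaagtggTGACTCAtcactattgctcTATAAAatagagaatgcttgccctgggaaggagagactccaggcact
Timp1, chrX:3771123-3771272, minus strand: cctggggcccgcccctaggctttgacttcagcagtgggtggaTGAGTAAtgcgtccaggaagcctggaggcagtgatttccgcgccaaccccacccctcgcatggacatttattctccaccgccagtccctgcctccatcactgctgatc
Timp3, chr7:19459559-19459708, minus strand: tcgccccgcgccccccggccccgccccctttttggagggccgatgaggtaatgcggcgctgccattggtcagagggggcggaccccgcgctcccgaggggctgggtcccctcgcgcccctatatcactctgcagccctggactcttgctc

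The AP-1 motif began 71 bases before the start of Mmp3 and, on the other strand, 66 bases before that of Mmp13. TATAAA followed it in both, at 32 and 47 bases before the start. The window of Timp1 held the variant TGAGTAA at 108 bases and that of Mmp3 held it at 144 bases, whereas the window of Timp3 held none of the 3 motifs. Among the 33469 windows of the same length in the table, 2.38% held the AP-1 motif, 1.43% held TGAGTAA and 8.001% held TATAAA, with either strand counted. The G and C content was 39.3% for Mmp3 and 46.0% for Mmp13, against 60.7% for Timp1 and 72.0% for Timp3. Such matches describe the letters only. In the GRCr8 annotation Mmp13 and Mmp3 lie on the same chromosome with 3 genes between them, of which 2, Mmp12 and Mmp1b, are also matrix metalloproteinases.

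Total counts lay between 34546567 and 47181784 per library, so all 7 genes were counted at depth in most libraries, with Mmp3 the lowest at 31 to 841 counts. No 2 libraries were duplicates. Levels are given as CPM, counts scaled to the size of the library, after TMM normalization, which sets the libraries to a common level, and differences as log2 fold changes of treated minus injury model rats. CPM is not corrected for gene length, so the levels are compared between libraries and not between genes. Libraries stood apart from one another more than the groups did. Celecoxib + lactoferrin replicate 2 was the lowest of the 6 libraries for all 7 genes and injury model replicate 2 was the second lowest for all 7, a pattern noticed after the values had been seen. Among all 15122 genes tested, 6.79% had this order, and 26.6% were lowest and 26.9% highest in celecoxib + lactoferrin replicate 2. The total of that library was 34546738 counts, its TMM factor was 0.999, and its 10 most abundant genes took 24.1% of its counts, within the range of 22.6% to 28.3% over the 6 libraries. In whole tendon, fewer cells of a type and less RNA per cell cannot be told apart, and markers of cell types were not used here because no other gene ID could be paired with a symbol.

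The collagenase Mmp13 varied most. Its level was 22.2, 11.3 and 45.0 CPM in injury model replicates 1, 2 and 3, and 158, 2.72 and 29.6 CPM in celecoxib + lactoferrin replicates 1, 2 and 3. The treated group therefore held both the highest and the lowest library, and the injury model group lay between them. These levels rest on 5400 counts in celecoxib + lactoferrin replicate 1 and 94 in replicate 2, whose exact Poisson 95% interval of 2.20 to 3.33 CPM, for counting error only, lies below every other library. The treated rats thus spanned a 57.9-fold range and the injury model rats a 3.99-fold range. The mean was 63.3 ± 82.8 CPM (SD, n = 3) in treated and 26.2 ± 17.2 CPM (SD, n = 3) in injury model rats. The log2 fold change was 1.28 (standard error 1.43, 95% interval -2.44 to 4.99). It fell to -0.69 when treated replicate 1 was left out and reached 1.92 when injury model replicate 3 was left out, so a single rat set its direction.

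Mmp3, the stromelysin, followed a similar order. Its level was 14.4, 3.37 and 14.5 CPM in injury model replicates 1, 2 and 3, and 24.6, 0.898 and 14.3 CPM in celecoxib + lactoferrin replicates 1, 2 and 3. Replicates 1 and 3 of the injury model group and replicate 3 of the treated group had nearly the same level, with 1 library above them and both replicates numbered 2 below. Celecoxib + lactoferrin replicate 2 held 31 counts, with an exact Poisson 95% interval of 0.610 to 1.28 CPM, again below every other library. The means were 13.3 ± 11.9 CPM (SD, n = 3) in treated and 10.8 ± 6.403 CPM (SD, n = 3) in injury model rats, and the log2 fold change was 0.30 (standard error 1.19, 95% interval -2.77 to 3.37). It was -0.49 without treated replicate 1, 0.86 without treated replicate 2 and -0.12 without injury model replicate 2. In the fit without treated replicate 2, with TMM factors computed anew, the groups did not overlap for Mmp3 and overlapped for the other 6 genes. On the CPM given above they still overlap for Mmp3 without that rat. Treated replicate 3, at 14.3 CPM, lay just below injury model replicates 1 and 3, at 14.4 and 14.5 CPM. The non-overlap thus rests on a near-tie that the rescaling turned. Of all genes tested in that fit, 16.6% had groups that did not overlap.

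Mmp9, the gelatinase that neutrophils and macrophages are known to release, was the third gene with a wide range. Its level was 36.5, 14.4 and 24.0 CPM in injury model replicates 1, 2 and 3, and 92.8, 7.13 and 35.4 CPM in celecoxib + lactoferrin replicates 1, 2 and 3. As for Mmp3 and Mmp13, replicate 1 of the treated group was the highest library and replicate 2 the lowest. The means were 45.1 ± 43.7 CPM (SD, n = 3) in treated and 24.95 ± 11.1 CPM (SD, n = 3) in injury model rats, and the log2 fold change was 0.85 (standard error 0.94, 95% interval -1.56 to 3.27). Without celecoxib + lactoferrin replicate 1 it was -0.23, and without replicate 2 of that group it was 1.36. The latter fit gave an unadjusted p of 0.058 in edgeR, the smallest for any of the 7 genes in any fit run.

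**Figure D1:**
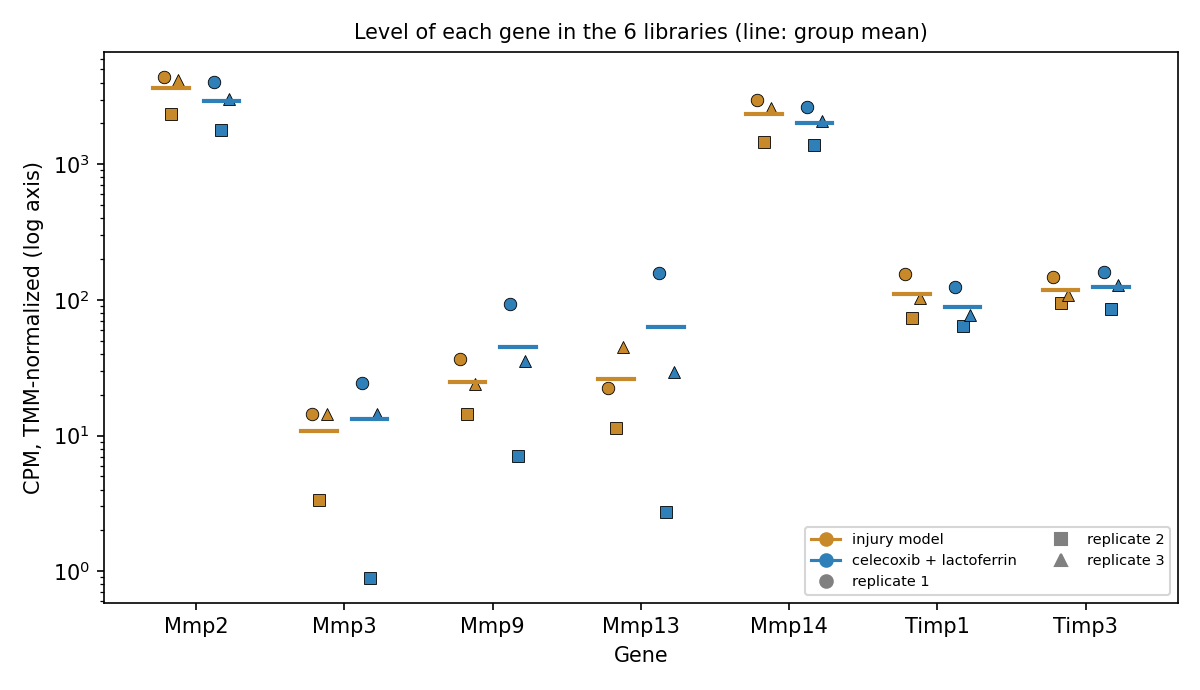
TMM-normalized CPM on a log axis for the 7 genes, with a point for each library (shape gives the replicate, color the group) and a line at each group mean. The blue square, celecoxib + lactoferrin replicate 2, is the lowest point of every gene, and the points spread most for Mmp3, Mmp9 and Mmp13.

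Mmp2 and Mmp14, the gelatinase and its membrane activator, spanned a narrower range than Mmp3, Mmp9 and Mmp13. Mmp2 stood at 4432, 2364 and 4181 CPM in injury model replicates 1, 2 and 3, and at 4036, 1786 and 3012 CPM in celecoxib + lactoferrin replicates 1, 2 and 3. Mmp14 stood at 2968, 1463 and 2614 CPM in injury model replicates 1, 2 and 3, and at 2643, 1382 and 2069 CPM in celecoxib + lactoferrin replicates 1, 2 and 3. In both genes the replicates numbered 2 were low in each group and the groups overlapped. The mean of Mmp2 was 2945 ± 1126 CPM (SD, n = 3) in treated and 3659 ± 1129 CPM (SD, n = 3) in injury model rats, a log2 fold change of -0.31 (standard error 0.37, 95% interval -1.16 to 0.53). That of Mmp14 was 2031 ± 631 CPM (SD, n = 3) in treated and 2348 ± 787 CPM (SD, n = 3) in injury model rats, a log2 fold change of -0.21 (standard error 0.34, 95% interval -1.01 to 0.59). With each rat left out in turn, the log2 fold change of Mmp2 ran from -0.61 (without celecoxib + lactoferrin replicate 1) to -0.06 (without replicate 2 of that group). That of Mmp14 had its lowest value, -0.46, without injury model replicate 2 and its highest, 0.00370, without treated replicate 2. Without injury model replicate 2 the groups did not overlap for Mmp2 and overlapped for the other 6 genes, and 16.7% of all genes tested in that fit had groups that did not overlap.

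The pair moved together from rat to rat. The count of Mmp2 was between 1.29 and 1.62 times that of Mmp14 in every library, a 1.25-fold range, while Mmp2 itself spanned a 2.48-fold range and Mmp14 a 2.15-fold range in CPM. Of the 21 pairs that can be formed from the 7 genes, this ratio was the most constant, with an SD over the 6 libraries of 0.12 on the log2 scale. The other 5 pairs among Mmp2, Mmp14, Timp1 and Timp3 followed, with SDs of 0.19 to 0.31. Each of the 15 pairs with Mmp3, Mmp9 or Mmp13 had a larger SD, from 0.70 for Mmp3 with Mmp13 to 1.68 for Mmp13 with Timp3. All pairs share the same 6 libraries, and the SDs are given as a description.

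Both inhibitors also spanned a narrower range than Mmp3, Mmp9 and Mmp13. Timp1, which binds most secreted metalloproteinases, stood at 155, 73.4 and 104 CPM in injury model replicates 1, 2 and 3, and at 124, 63.8 and 76.9 CPM in celecoxib + lactoferrin replicates 1, 2 and 3. Timp3, the inhibitor that is held in the matrix, stood at 148, 95.6 and 109 CPM in injury model replicates 1, 2 and 3, and at 160, 85.7 and 129 CPM in celecoxib + lactoferrin replicates 1, 2 and 3. The groups overlapped for both. Timp1 had a log2 fold change of -0.33 (standard error 0.34, 95% interval -1.12 to 0.46), from 88.4 ± 31.9 CPM (SD, n = 3) in treated and 111 ± 41.3 CPM (SD, n = 3) in injury model rats. Timp3 had one of 0.09 (standard error 0.27, 95% interval -0.53 to 0.71), from 125 ± 37.5 CPM (SD, n = 3) in treated and 118 ± 27.4 CPM (SD, n = 3) in injury model rats. The value of Timp1 shrank to -0.00569 without injury model replicate 1 and was -0.66 without treated replicate 1. That of Timp3 was 0.30 without celecoxib + lactoferrin replicate 2 and -0.13 without replicate 1.

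**Figure D2:**
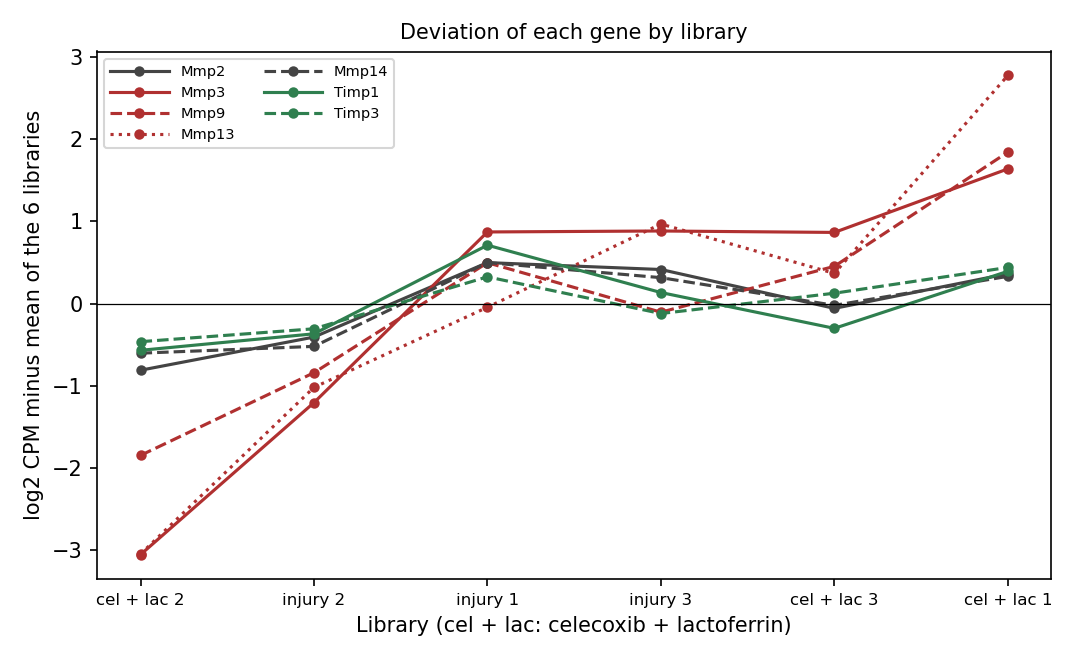
Log2 CPM (prior count 2) of each gene minus its mean over the 6 libraries, with libraries on the horizontal axis ordered for display and lines that join the points of 1 gene. All 7 genes are lowest in celecoxib + lactoferrin replicate 2 and next lowest in injury model replicate 2, and Mmp3, Mmp9 and Mmp13 (red) depart farther from 0 there and in celecoxib + lactoferrin replicate 1 than Mmp2, Mmp14 (grey), Timp1 and Timp3 (green).

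Whether the treatment changed these genes was tested with edgeR's quasi-likelihood test on all genes, with Benjamini-Hochberg adjustment over the 15122 genes tested. None of the 7 genes passed: 0 had an adjusted p under 0.05 and 0 had an unadjusted p under 0.05, the threshold of the study's methods. Of all genes tested, 0.00661% passed the adjusted and 2.61% the unadjusted threshold. The unadjusted p in edgeR lay between 0.364 (Timp1) and 0.809 (Mmp3), and the adjusted p in edgeR was 0.998 for each of the 7. DESeq2 and limma voom also called 0 of the 7 at either threshold, where DESeq2 called 3.21% of all genes at the unadjusted threshold and 0.164% at the adjusted one, and limma voom 3.27% and 0.0198%. The groups overlapped in all 7 genes, and 7.8% of all genes tested had groups that did not. The estimates were positive for Mmp3, Mmp9, Mmp13 and Timp3 and negative for Mmp2, Mmp14 and Timp1. Their median log2 fold change was 0.09, against 0.00671 over all genes tested, of which 49% had a negative estimate. An edgeR estimate compares fitted mean counts, in which a high library weighs more than in a mean of log2 values. The ratios below use means of log2 values. In treated minus injury model rats, those of Mmp3 differed by -0.07 to Timp1 and -0.45 to Timp3. Those of Mmp13 differed by 0.38 and -0.01, and those of Mmp9 by 0.62 and 0.23. The edgeR estimates of Mmp3, Mmp13 and Mmp9 were 0.30, 1.28 and 0.85, though a ratio also carries the difference of its inhibitor. Since the 95% intervals of Mmp3, Mmp9 and Mmp13 each reach past 3 on the log2 scale upward, the test does not show that these genes were alike in the groups.

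The spread between rats of the same group, pooled over both groups, was what set Mmp3, Mmp9 and Mmp13 apart from most genes. Their within-group SD of log2 CPM was 1.97, 1.40 and 2.19, larger than that of 97.2%, 94.6% and 97.7% of the genes tested. For Mmp2, Mmp14, Timp1 and Timp3 it was 0.55, 0.51, 0.52 and 0.40, larger than that of 76.3%, 73.4%, 74.1% and 61.8%. The median over all genes tested was 0.32. Among the treated rats, replicate 1 exceeded replicate 2 by 27.3 times for Mmp3, 13.02 times for Mmp9 and 57.9 times for Mmp13, but by between 1.87 and 2.26 times for the other 4 genes. Among the injury model rats, replicate 1 exceeded replicate 2 by 4.27 times for Mmp3, 2.54 times for Mmp9 and 1.97 times for Mmp13, and by between 1.55 and 2.11 times for the other 4. No test was made of whether the spread differed between the groups.

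**Figure D3:**
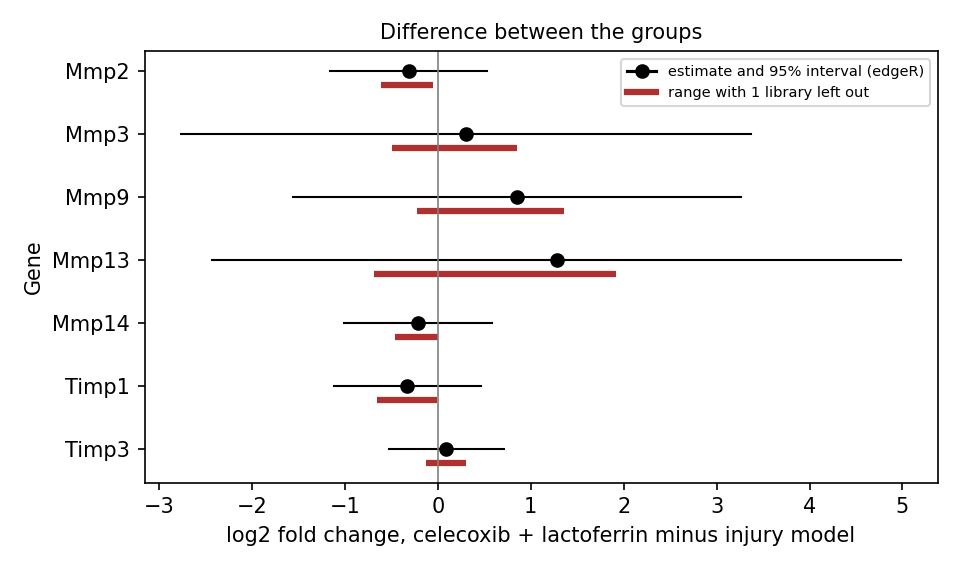
Log2 fold change of celecoxib + lactoferrin minus injury model rats for the 7 genes, with the edgeR estimate and 95% interval in black and the range of estimates with 1 library left out in red. Every interval spans 0, and the interval of Mmp13, from -2.44 to 4.99, is the widest.

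The balance of proteinase and inhibitor was taken within each library as the log2 ratio of their counts, in which depth and scaling cancel. Gene length is not corrected for, so a ratio is compared between libraries and not with 0. None of the 10 pairs of 1 Mmp and 1 Timp had groups that did not overlap: the ratio was higher in the treated group for 4 and lower for 6. The two-sided exact permutation p ran from 0.2 to 1.0, and 3 rats against 3 allow no p below 0.1. Celecoxib + lactoferrin replicate 1 had the highest ratio in 6 of the 10 pairs, all those with Mmp3, Mmp9 or Mmp13, and replicate 2 of that group had the lowest ratio in 8.

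The 2 ratios with Mmp13 spanned the widest ranges over the 6 libraries, 4.95 on the log2 scale with Timp3 and 4.89 with Timp1. There were 0.143, 0.154 and 0.432 counts of Mmp13 for each count of Timp1 in injury model replicates 1, 2 and 3, and 1.27, 0.0427 and 0.385 in celecoxib + lactoferrin replicates 1, 2 and 3. On the log2 scale the difference between the groups was 0.38, from -1.86 ± 2.48 (SD, n = 3) in treated and -2.24 ± 0.89 (SD, n = 3) in injury model rats, and it was -0.73 without celecoxib + lactoferrin replicate 1 and 1.72 without replicate 2. The treated group held both the highest and the lowest ratio of the 6 libraries.

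The ratio of Mmp9 to Timp1 was nearly constant in the injury model group. It was 0.235, 0.196 and 0.231 there in replicates 1, 2 and 3, and 0.746, 0.112 and 0.460 in celecoxib + lactoferrin replicates 1, 2 and 3. Replicates 1 and 3 of the treated group lay above all injury model rats and replicate 2 lay below them. The difference on the log2 scale was 0.62, from -1.57 ± 1.42 (SD, n = 3) in treated and -2.19 ± 0.14 (SD, n = 3) in injury model rats (two-sided exact permutation test, p = 0.5). It was 1.41 without celecoxib + lactoferrin replicate 2 and 0.04 without replicate 1.

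The smallest p belonged to Mmp2 with Timp3. Their ratio was 29.9, 24.7 and 38.5 in injury model replicates 1, 2 and 3, and 25.1, 20.8 and 23.3 in celecoxib + lactoferrin replicates 1, 2 and 3. The groups touched only in that injury model replicate 2 lay below celecoxib + lactoferrin replicate 1. On the log2 scale the difference was -0.41, from 4.53 ± 0.14 (SD, n = 3) in treated and 4.93 ± 0.32 (SD, n = 3) in injury model rats (two-sided exact permutation test, p = 0.2). With each rat left out in turn it lay between -0.56, without injury model replicate 2, and -0.24, without injury model replicate 3. The ratio of Mmp14 to Timp3 was 20.02, 15.3 and 24.0 in injury model replicates 1, 2 and 3, and 16.5, 16.1 and 16.0 in celecoxib + lactoferrin replicates 1, 2 and 3. Its 3 treated values lay close together and within the range of the injury model group, with a difference of -0.26 on the log2 scale (two-sided exact permutation test, p = 0.4). That difference was -0.44 without injury model replicate 2 and -0.11 without injury model replicate 3.

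Taken over all 5 proteinases and both inhibitors, the mean log2 CPM of the Mmps minus that of the Timps was 0.19, -0.22 and 0.73 in injury model replicates 1, 2 and 3. It was 1.22, -1.12 and 0.65 in celecoxib + lactoferrin replicates 1, 2 and 3, so the treated rats lay on both sides of the injury model rats. The means were 0.25 ± 1.22 (SD, n = 3) in treated and 0.23 ± 0.48 (SD, n = 3) in injury model rats, a difference of 0.02 that was smaller than either SD and was given no test. Mmp2 and Mmp14 made up between 96.0% and 99.7% of the counts of the 5 Mmps, lowest in celecoxib + lactoferrin replicate 1 and highest in replicate 2, so a ratio of summed counts follows these 2 genes. The log2 ratio of summed counts differed by -0.16 in treated minus injury model rats, the opposite sign to the mean.

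**Figure D4:**
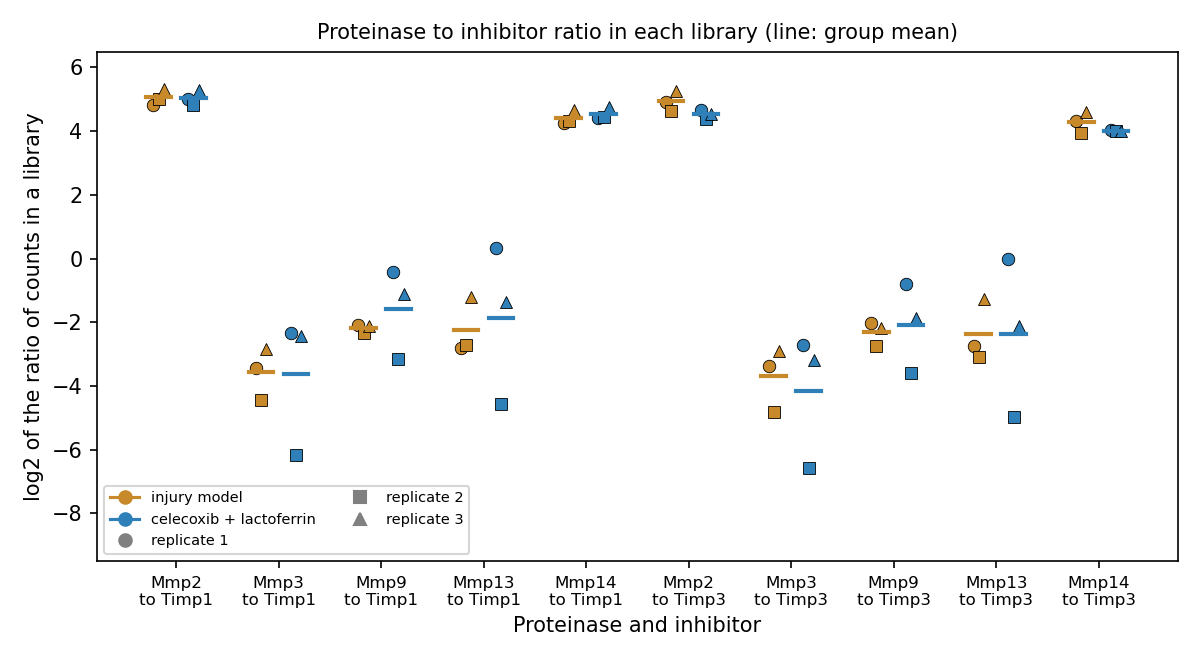
Log2 of the ratio of proteinase to inhibitor counts for the 10 pairs, with a point for each library (shape gives the replicate, color the group) and a line at each group mean. The groups overlap in all 10 pairs, and the 3 treated libraries are far apart wherever Mmp3, Mmp9 or Mmp13 is the proteinase.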

How the data were processed

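The authors sequenced libraries from total RNA with Illumina chemistry, dropped reads of low quality, mapped the others to rat assembly Rnor_6.0 with HISAT2 and deposited raw counts per gene ID. The labels list a human build instead. The counting tool, its strand setting and its treatment of reads with several matches are not given in the sources used here. Symbols of the 7 genes came with their IDs. No reference table paired the other IDs with symbols, so the pathway and marker lists and the genes nearest in pattern were not used. The 7 genes, lists and tests were chosen with earlier results of these data known.

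Counts were tested in R 4.3.3 with edgeR 4.0.16 (TMM, filterByExpr by group, robust quasi-likelihood fit, Benjamini-Hochberg adjustment over 15122 genes), and checked on simulated data. Alternatives used DESeq2 1.42.0 and voom with quality weights per library in limma 3.58.1. Log2 CPM used a prior count of 2. Ratios were compared with exact permutation tests (SciPy 1.17.1). The methods name 3 rats per group on day 14, so each library is taken as a separate rat. The p-values weigh the difference between the groups against the spread between these libraries. All 7 genes are described, by rule.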

Additional observations from a re-analysis of the deposited data

How the results depend on the processing

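Under the 8 alternatives that kept all 6 libraries, 0 of the 7 genes had an unadjusted or adjusted p under 0.05. All 8 share the same libraries, so their signs are not independent, and 53 of 56 log2 fold changes kept their sign. The exceptions were Mmp14 with limma voom (0.0351) and, with a replicate block, Mmp3 (-0.31) and Mmp13 (-0.0541). The cause was not tested. Of all genes, between 1.47% and 3.27% passed the unadjusted and between 0% and 0.164% the adjusted threshold in these fits. Deviations of rats with the same replicate number had correlations across genes of -0.27 to 0.06, within the range of -0.31 to 0.30 for unlike numbers. Both replicates numbered 2 were the lowest of their group for all 7 genes. They were the lowest 2 of the 6 libraries, celecoxib + lactoferrin replicate 2 first, an order that 6.79% of all genes tested had. No pairing by number is given in the sources used here, and so few correlations cannot settle whether there was one. With the block 326 genes passed the unadjusted threshold against 395 without it. The block adds terms to a fit of 6 libraries and leaves less to estimate the spread from, so these counts cannot settle the pairing either. With 1 library left out, 0 of the 7 genes passed either threshold, where between 1.47% (injury model replicate 1 left out) and 5.83% (treated replicate 3 left out) of all genes passed the unadjusted and between 0.00643% and 0.0589% the adjusted one. The log2 fold changes ran from -0.49 to 0.86 (Mmp3), -0.23 to 1.36 (Mmp9), -0.69 to 1.92 (Mmp13), -0.46 to 0.00370 (Mmp14) and -0.13 to 0.30 (Timp3), while those of Mmp2 and Timp1 stayed below 0. Of the 42 log2 fold changes with 1 library left out, 7 had the opposite sign to the main fit. The number of the 7 genes whose groups did not overlap ran from 0 to 1, beside 14.9% to 22.8% of all genes tested in these fits. The ratios ran from -0.15 to 0.12 (Mmp2 to Timp1), -0.71 to 1.19 (Mmp3 to Timp1), -1.18 to 0.76 (Mmp3 to Timp3), -0.42 to 0.98 (Mmp9 to Timp3), -0.73 to 1.72 (Mmp13 to Timp1) and -1.19 to 1.29 (Mmp13 to Timp3), and the other 4 kept their sign. The mean ratio ran from -0.47 to 0.70. Scaled by library size alone or with DESeq2 size factors, a check chosen after seeing the data, celecoxib + lactoferrin replicate 2 stayed lowest and injury model replicate 2 second lowest for all 7 genes. Of all genes tested, 4.34% had this order with library size alone and 6.16% with DESeq2 size factors. The lowest count was that of Mmp3, at 31 counts in 1 library. With a term for library depth the log2 fold change of Mmp3 was 0.25, against 0.30 in the main fit. That of Mmp13 moved the most, to 0.83 from 1.28.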
